A study of Mus musculus with 17 samples.

Results

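A set of 10 enzymes that feed glycine, serine and threonine carbon into folate metabolism were followed across 17 RNA-seq samples of mouse stem cells and fibroblasts. The members are a fixed list of gene symbols. All 10 of 10 were present, out of 23891 gene symbols in the files. Where a gene had several RefSeq transcripts, the one with the highest mean level over the 17 samples was used, which concerned Gcat, Shmt2 and Psat1. For these 3 genes the division of reads between transcripts is an estimate.

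The study asked how spermatogonial stem and progenitor cells (SSCs), kept in culture, convert without added factors into multipotent cells (MASCs) that resemble embryonic stem cells (ESCs). RNA was sequenced from 4 SSC, 6 MASC and 2 ESC lines, 2 induced pluripotent stem (iPS) lines, 2 cultures of haematopoietic stem and progenitor cells (HSCs) and 1 sample of mouse embryonic fibroblasts (MEFs). SSC.1, SSC.2, MASC.1, MASC.2 and ESC.1 carry Oct4-GFP, in which a fragment of the Oct4 gene drives a green reporter. The strain of SSC.4, MASC.3, MASC.4, ESC.2, the iPS lines and the MEFs is 129mix. Gt(ROSA26)Sor-lacZ is the strain of MASC.5 and MASC.6, and C57Bl/6J that of SSC.3 and the HSC cultures. MASC lines were picked as ESC-like colonies from SSC cultures after long expansion, and the labels do not say which SSC line gave which MASC line. The iPS lines came from E13.5 fibroblasts of tetO-4F2A x H3.3B-HA embryos given doxycycline at 2 μg/ml, again as picked colonies, and the MEF sample from E13.5 H3.3B-HA embryos without that cassette. The HSC cultures are lineage-depleted (Lin-) bone marrow cells grown with soluble Kit ligand over E4ORF1-HUVECs, which are human endothelial cells. SSCs grew on MEF feeders in a StemPro-34 based medium with GDNF, bFGF, EGF and a little serum, whereas MASCs, ESCs and iPS cells grew on MEF feeders in a medium with serum replacement and LIF. Both media held added nonessential amino acids, which include serine and glycine but not threonine. Medium and cell type cannot be told apart in any comparison with SSCs. The same holds for medium, feeder cells, strain and cell type between HSC cultures and ESC or iPS lines, which share no strain label. Since the lines of a strain may share an origin, p-values measure the spread between these samples only.

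Mouse ESCs are known for an unusual need for threonine. Threonine dehydrogenase (Tdh) and glycine C-acetyltransferase (Gcat) split threonine in the mitochondrion into glycine and acetyl-CoA, and the glycine cleavage system, with glycine decarboxylase (Gldc) at its head, passes a carbon from glycine to tetrahydrofolate. Serine hydroxymethyltransferases (Shmt1 in the cytosol, Shmt2 in the mitochondrion) take the same kind of unit from serine, the Mthfd enzymes convert the folate-bound units, and Phgdh, Psat1 and Psph make serine from a glycolytic intermediate.

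Levels are given as FPKM, fragments per kilobase of transcript scaled to the depth of the sample, which allows genes of different length to be compared. All 170 member values were marked as successfully estimated, and the bounds given with them lay a median of 4.24% either side of the value. At 1 FPKM the read coverage of a transcript was between 1.258 and 3.233 reads per base, so values well under 1 FPKM rest on few reads. Differences and tests are on the log2(FPKM + 1) scale, which understates the change of low genes. They come from limma, with Benjamini-Hochberg adjustment over 32661 transcripts, and a transcript is called changed where the adjusted p is under 0.05. In bulk samples such as these, fewer cells of a type and less RNA per cell cannot be told apart.

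The labels were checked against marker genes. The summed FPKM of 6 pluripotency genes was between 1379 and 1697 in MASC lines and between 1586 and 2641 in ESC and iPS lines, against 113.7 in SSC.1 and 7.39 to 18.8 in the other SSC lines. Pou5f1 (the gene of Oct4) alone gave 94.5 of the SSC.1 sum. MASC lines had less of 6 of 7 spermatogonial markers than SSC lines and more of the remaining one, Etv5 (49.1 FPKM on average in SSC and 112 in MASC lines, named after its values were seen). Of 6 markers of differentiating germ cells, 2 were lower in MASC lines (summed FPKM of 51.4 to 169.5 in SSC and 17.3 to 45.9 in MASC lines), and of 4 endothelial markers 2 were higher (1.99 to 5.82 and 5.25 to 15.7). Of 6 testis somatic markers 1 was lower in MASC lines (4.17 to 19.9 in SSC and 5.16 to 18.3 in MASC lines). The part of these cell types in the enzyme levels was not tested. Summed levels of 8 fibroblast markers, which feeder cells also carry, ran from 9.50 to 1240 in SSC lines and from 23.8 to 1421 in MASC lines, highest in SSC.3 and MASC.1, against 5175 in the MEF sample, where Col1a1 is listed at 0 beside 3060 FPKM of Col1a2, so that this sum lacks a main marker. None of these 8 was called between MASC and SSC lines, and 0 of 8 had an unadjusted p under 0.05. The 6 haematopoietic markers summed to 7405 and 11077 in the HSC cultures and to at most 15.3 in SSC and MASC lines. The MEF sample had 63.1. Most of the HSC sums came from Cpa3 alone, with 10252 FPKM in HSC.1 and 6795 FPKM in HSC.2. Ptprc was at 19.7 and 23.7 FPKM and Runx1 at 11.8 and 8.18 FPKM. All 6 were higher in HSC cultures than in SSC lines. The sums do not show which blood cells the cultures held, or what share of the cells are stem and progenitor cells. The name HSC is that of the sample labels. The 4 endothelial markers summed to 68.4 FPKM in HSC.1 and 54.4 FPKM in HSC.2, above every other sample.

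Of the 10 enzyme genes, 7 differed between MASC and SSC lines. Across all transcripts, 30.9% were called in this comparison, and of the 17140 with a mean FPKM of at least 1 the share was 45.1%. Tdh, Gldc, Mthfd1, Psat1 and Shmt2 were higher in MASC lines, a direction called for 11.4% of all transcripts, and Shmt1 and Gcat were lower, as were 19.5% of all transcripts. Tdh, Gldc and Mthfd1 were higher by at least 2 on the log2 scale, a size that 1.73% of all transcripts reached. The median log2 difference of the 10 genes was 0.57, beside a median of 0.00 over all transcripts. For 7 of the 10 no MASC line overlapped with an SSC line in the transcript used, which was true of 25.3% of all transcripts, low ones included. With both transcripts summed, lines overlapped in Gcat (19.3 FPKM in SSC.2, 20.2 FPKM in MASC.1). They also overlapped in Shmt2 (81.5 FPKM in SSC.1, 72.9 FPKM in MASC.4).

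**Figure D1:**
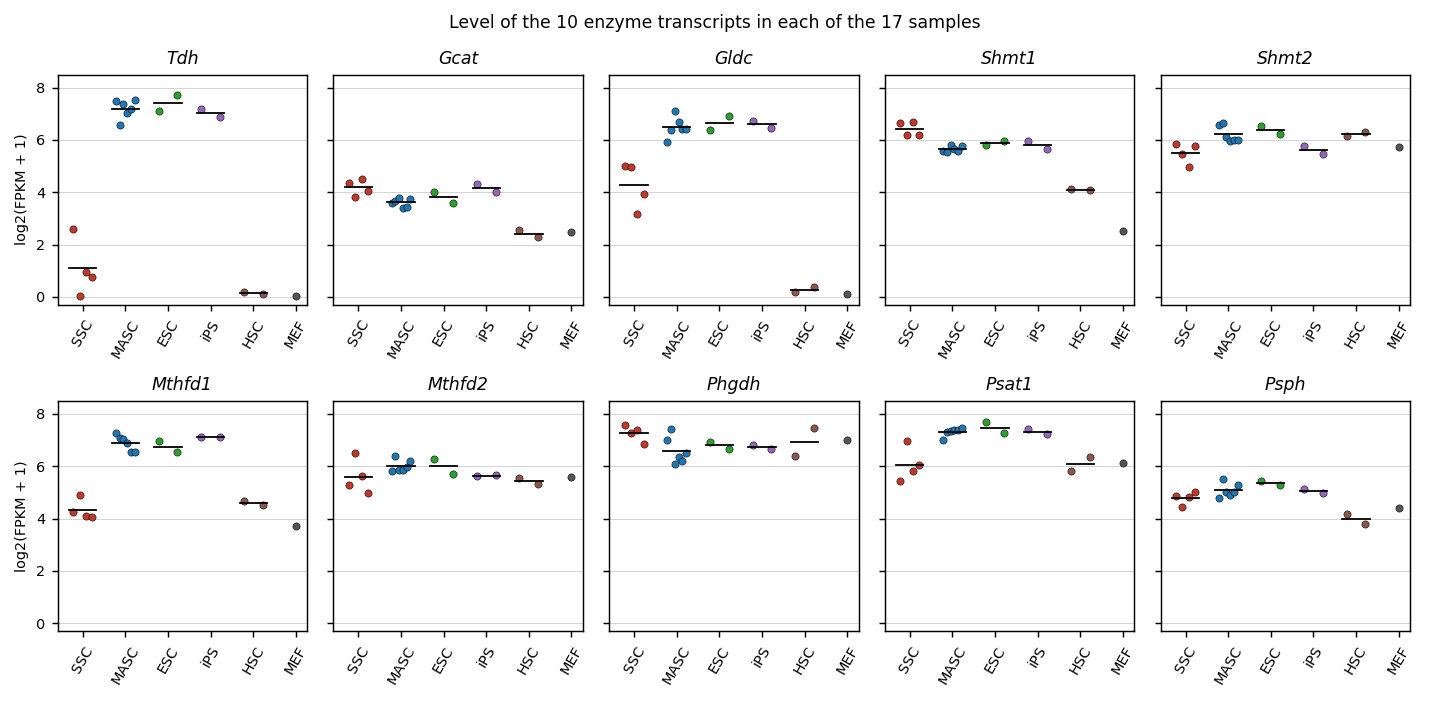
Level of each enzyme transcript on the log2(FPKM + 1) axis in the 17 samples, grouped by cell type on the horizontal axis; each point is 1 sample and the bar is the mean of the cell type (no bar for the single MEF sample). Tdh, Gldc and Mthfd1 stand far higher in MASC, ESC and iPS lines than in SSC lines, while Phgdh, Mthfd2 and Psph overlap between MASC and SSC lines.

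The sequences upstream of the start sites are shown for 4 members that changed, 3 that rose and 1 that fell, to set what they share beside their opposite directions. They are the 250 bases before the RefSeq start, on GRCm38.p6, a later build than the mm9 of the expression files. Capitals mark a CCAAT box (CCAAT, or ATTGG on the other strand) or a GC box (GGGCGG, or CCGCCC).
Gldc: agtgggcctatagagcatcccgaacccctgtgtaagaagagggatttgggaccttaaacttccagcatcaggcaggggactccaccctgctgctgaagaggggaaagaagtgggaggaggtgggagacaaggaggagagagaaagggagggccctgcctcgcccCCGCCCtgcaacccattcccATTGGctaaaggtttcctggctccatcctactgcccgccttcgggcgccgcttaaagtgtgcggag
Mthfd1: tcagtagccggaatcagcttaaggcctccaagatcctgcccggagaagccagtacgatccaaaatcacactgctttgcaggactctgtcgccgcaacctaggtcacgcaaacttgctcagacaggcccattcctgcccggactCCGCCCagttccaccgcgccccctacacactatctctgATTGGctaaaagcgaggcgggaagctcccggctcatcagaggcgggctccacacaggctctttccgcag
Psat1: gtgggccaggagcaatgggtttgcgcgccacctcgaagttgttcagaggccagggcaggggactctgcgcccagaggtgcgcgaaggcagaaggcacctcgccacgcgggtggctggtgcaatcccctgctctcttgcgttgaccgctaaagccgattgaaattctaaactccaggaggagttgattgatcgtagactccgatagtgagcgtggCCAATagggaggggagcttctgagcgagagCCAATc
Shmt1: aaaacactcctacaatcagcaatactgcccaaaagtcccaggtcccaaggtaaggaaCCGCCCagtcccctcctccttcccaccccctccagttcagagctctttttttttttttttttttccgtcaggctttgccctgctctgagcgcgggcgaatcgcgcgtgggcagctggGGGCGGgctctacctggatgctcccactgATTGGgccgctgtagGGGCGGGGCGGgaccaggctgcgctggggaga
They lie at chr19:30175442-30175691 (Gldc), chr12:76254982-76255231 (Mthfd1), chr19:15925060-15925309 (Psat1) and chr11:60811266-60811515 (Shmt1), the Mthfd1 window on the plus strand and the others on the minus strand.

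Of the 9 members with an entry, 7 held a CCAAT box, against 33.8% of 32851 mouse promoters, and 5 held a GC box, against 32.7%. The CCAAT box nearest to the start lay 62 bases before it in Gldc, 65 in Mthfd1, 43 in Shmt1 and 2 in Psat1. Shmt1 held 4 GC boxes, and Gldc and Mthfd1 had 1 each. The CCAAT box was also in Mthfd2, Phgdh and Psph, which were not called, and was in neither Gcat, which fell, nor Shmt2, which rose. An E-box (CACGTG), the element TGATGNAA bound by ATF4 with C/EBP proteins, and the octamer ATTTGCAT were in 0 of 9 windows, against 6.02%, 3.45% and 1.6% of all promoters. These are matches of letters in a window of 250 bases on either strand and do not show binding.

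The threonine enzymes did not move together. Tdh (NM_021480, chr14:64111184-64127929 on mm9) stood at 5.02, 0.0316, 0.944 and 0.704 FPKM in SSC.1 to SSC.4, and between 95.3 and 181 FPKM in the 6 MASC lines (median 155). The ESC lines had 136 and 211 FPKM and the iPS lines 146 and 117 FPKM. The multipotent and pluripotent lines thus lay far above every SSC line, with no overlap. In the HSC cultures Tdh was at 0.146 and 0.0688 FPKM and in the MEF sample at 0.0358 FPKM. The MASC minus SSC difference was 6.11 on the log2 scale (SE 0.43, adjusted p = 7.3e-06), or 68.9-fold on that scale, and Tdh ranked at the 98.29th percentile of all transcripts in MASC lines against the 54.39th in SSC lines.

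Within the SSC lines Tdh was uneven. SSC.1, the highest, was also the SSC line with most pluripotency marker RNA. Most of it was Pou5f1, at 94.5 FPKM against 1.37 to 5.42 FPKM in SSC.2 to SSC.4. Other pluripotency genes set SSC.1 less apart. Sox2 was at 1.13 FPKM in SSC.1 and 3.13 FPKM in SSC.2, and Zfp42 at 10.6 and 10.5 FPKM. Esrrb was at 6.82 FPKM in SSC.1 and 4.88 FPKM in SSC.3. Nanog was at most 0.0435 FPKM and Tdgf1 at most 0.663 FPKM in SSC lines. The part of these genes in the SSC.1 value of Tdh was not tested. Without SSC.1 the MASC minus SSC difference of Tdh was 6.61. The MEF sample, of the cell type used as feeder, had 0.0358 FPKM of Tdh.

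Gcat (NM_013847, chr15:78861304-78868786), which acts directly after Tdh, was at 19.7, 13.0, 21.8 and 15.6 FPKM in SSC.1 to SSC.4 and between 9.61 and 12.9 FPKM in MASC lines (median 11.4). Each MASC line was below each SSC line in this transcript, though the lowest SSC line and the highest MASC line were close. With both Gcat transcripts summed the lines overlapped. MASC.1 then had 20.2 FPKM and MASC.2 23.6 FPKM, above the 19.3 FPKM of SSC.2. For NM_013847 the difference was -0.58 (SE 0.15, adjusted p = 0.016), a direction opposite to that of Tdh. ESC lines, at 15.1 and 11.2 FPKM, and iPS lines, at 19.0 and 15.2 FPKM, overlapped with SSC lines. HSC cultures (4.90 and 3.86 FPKM) and the MEF sample (4.56 FPKM) had the least. The call in MASC lines was lost with quantile normalization (-0.41, adjusted p = 0.094), with strain as a factor (-0.44, adjusted p = 0.12), and without SSC.3 and MASC.1 (-0.46, adjusted p = 0.075), a setting added after the data were seen.

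In the glycine cleavage system, Gldc and Amt were higher in MASC lines. Gldc (NM_138595, chr19:30172931-30249931) was at 30.9, 30.6, 7.99 and 14.3 FPKM in SSC.1 to SSC.4 and between 59.6 and 137 FPKM in MASC lines (median 83.8). The ranges did not overlap, and the 2 Oct4-GFP SSC lines were the highest of the SSC lines. The lowest Gldc in an SSC line, in SSC.3, went with the highest fibroblast marker sum among SSC lines (1240 FPKM), and the lowest in a MASC line, in MASC.1, with the highest among MASC lines (1421 FPKM). The part of feeder RNA in these values was not tested. The difference was 2.22 (SE 0.38, adjusted p = 0.0016) and was 1.96 (adjusted p = 0.0024) without these 2 lines. ESC lines had 81.5 and 118 FPKM and iPS lines 106 and 87.4 FPKM. Gldc was far lower in the HSC cultures (0.145 and 0.294 FPKM) and the MEF sample (0.0728 FPKM).

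Gldc works with Amt, Gcsh and Dld in one complex. Amt, the aminomethyltransferase that hands the carbon to folate, was at 2.07, 2.93, 1.60 and 4.34 FPKM in SSC.1 to SSC.4 and between 42.3 and 53.6 FPKM in MASC lines. It rose by 3.78 on the log2 scale (SE 0.24, adjusted p = 3.5e-06), again without overlap. Gcsh, the carrier protein of the complex, differed by 0.21 (SE 0.22) and Dld, a dehydrogenase shared with other complexes, by 0.61 (SE 0.28), and neither was called. Thus 1 of these 3 partners passed the test, a share of 33.3% beside 30.9% of all transcripts.

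The serine hydroxymethyltransferases moved in opposite directions. Shmt1 (NM_009171, chr11:60602399-60624767) was at 99.4, 71.6, 100.8 and 71.9 FPKM in SSC.1 to SSC.4 and between 46.1 and 54.3 FPKM in MASC lines (median 48.1). It was lower in every MASC line than in every SSC line, with a log2 difference of -0.76 (SE 0.11, adjusted p = 0.00065). ESC lines (55.4 and 61.1 FPKM) and iPS lines (61.0 and 48.8 FPKM) were also below every SSC line. Shmt2 (NM_028230, chr10:126954179-126959500) was at 56.6, 42.7, 30.7 and 53.5 FPKM in SSC lines and between 61.7 and 100.2 FPKM in MASC lines (median 65.8). The difference was 0.71 (SE 0.21, adjusted p = 0.027). That call was lost when both Shmt2 transcripts were summed (0.58, adjusted p = 0.065), without SSC.3 (0.53, adjusted p = 0.069), and without SSC.2 or MASC.1. In NM_028230 the iPS lines (52.9 and 43.3 FPKM) overlapped with SSC lines, unlike the MASC lines. With both transcripts summed, MASC lines overlapped with SSC lines too.

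Of the Mthfd members, cytosolic Mthfd1 differed and mitochondrial Mthfd2 did not pass the test. Mthfd1 (NM_138745, chr12:77356219-77420807), a single protein with 3 activities, was at 17.9, 28.5, 16.3 and 15.5 FPKM in SSC.1 to SSC.4 and between 91.8 and 153 FPKM in MASC lines (median 124). No lines overlapped, and the difference was 2.58 (SE 0.21, adjusted p = 1.6e-05). ESC lines (124 and 92.1 FPKM) and iPS lines (138 and 136 FPKM) lay in or near the MASC range. HSC cultures had 24.7 and 21.9 FPKM and the MEF sample 12.1 FPKM, close to SSC lines. Mthfd2 (NM_008638, chr6:83255698-83267598) was at 37.5, 89.0, 48.6 and 30.8 FPKM in SSC lines and between 54.9 and 83.0 FPKM in MASC lines (median 59.5). Here SSC.2 was above all MASC lines. The difference was 0.42 (SE 0.27, 95% interval -0.19 to 1.03, adjusted p = 0.30), and Mthfd2 was called only when SSC.2 was left out (0.72, adjusted p = 0.021).

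**Figure D2:**
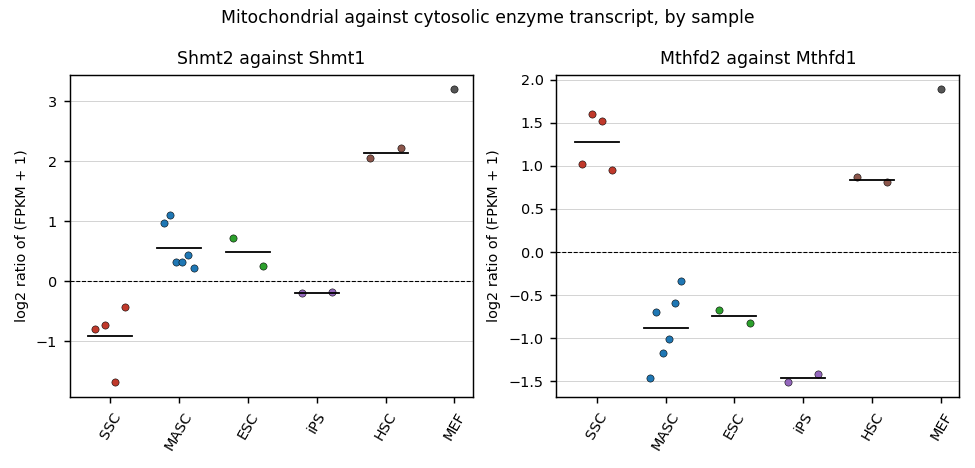
Log2 ratio of the mitochondrial to the cytosolic enzyme, each as FPKM + 1, for Shmt2 against Shmt1 (left) and Mthfd2 against Mthfd1 (right), with 1 point per sample, a bar for the mean of a cell type and a dashed line at equal levels. SSC lines sit below 0 on the left and above 0 on the right, and MASC lines the other way round.

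Seen as a balance within a sample, the pairs shifted in opposite senses. The FPKM ratio of Shmt2 to Shmt1 was between 0.304 and 0.743 in SSC lines, between 1.17 and 2.17 in MASC lines and between 1.20 and 1.67 in ESC lines. It stood at 0.867 and 0.886 in iPS lines, between 4.33 and 4.91 in HSC cultures and at 10.9 in the MEF sample. MASC and ESC lines therefore held more of the mitochondrial than of the cytosolic transcript, and SSC lines less. The iPS lines were slightly below equal levels, and slightly above (log2 ratios of 0.35 and 0.30) when both Shmt2 transcripts were summed. The ratio of Mthfd2 to Mthfd1 was between 1.99 and 3.12 in SSC lines, between 0.360 and 0.790 in MASC lines and between 0.346 and 0.625 in ESC and iPS lines. HSC cultures had 1.80 and 1.86 and the MEF sample 3.93, so that the cell types outside the MASC, ESC and iPS lines shared a surplus of the mitochondrial transcript. Mean log2 ratios differed between MASC and SSC lines by 1.47 for the Shmt pair and -2.15 for the Mthfd pair, given as a description.

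Of the 3 genes of serine synthesis, only Psat1 passed the test. Phgdh (NM_016966, chr3:98117094-98143892), the first enzyme of the route, was at 189.7, 155, 166 and 113 FPKM in SSC.1 to SSC.4 and between 67.7 and 172 FPKM in MASC lines (median 85.2). The ranges overlapped, with MASC.1 and MASC.2 the highest MASC lines. The difference of -0.67 (SE 0.27, 95% interval -1.28 to -0.06) was not called (adjusted p = 0.093). It was called with quantile normalization (-1.03, adjusted p = 0.0080) and without MASC.2 (-0.84, adjusted p = 0.017). ESC lines (121 and 100.3 FPKM), iPS lines (110.4 and 99.8 FPKM) and the MEF sample (127 FPKM) lay within the MASC range, and ESC.2 and both iPS lines below every SSC line. HSC.2 had 174 FPKM and HSC.1 83.1 FPKM.

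Psat1 (NM_177420, chr19:15979613-15999549), the aminotransferase of the second step, was at 42.8, 123, 55.8 and 64.5 FPKM in SSC.1 to SSC.4. In MASC lines it was between 128 and 175 FPKM (median 163), with the lowest MASC line only just above SSC.2. The difference was 1.25 (SE 0.25, adjusted p = 0.0039), lost with strain as a factor (1.12, adjusted p = 0.056). ESC lines had 204 and 153 FPKM and iPS lines 172 and 148 FPKM. Psph (NM_133900, chr5:130271434-130293129), the phosphatase that releases serine, was at 28.1, 21.0, 27.4 and 31.1 FPKM in SSC lines and between 26.5 and 44.6 FPKM in MASC lines (median 31.5). These ranges overlapped, and the difference of 0.29 (SE 0.15, 95% interval -0.05 to 0.63) was not called (adjusted p = 0.19).

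Comparing ESC lines with SSC lines, 5 of the 10 genes were called, against 21.4% of all transcripts and 32.8% of those with a mean FPKM of at least 1. Tdh (6.32), Mthfd1 (2.43), Gldc (2.36) and Psat1 (1.41) were higher on the log2 scale, beside 7.67% of all transcripts, and Shmt1 was lower (-0.53, adjusted p = 0.032), beside 13.8%. Shmt2 was higher by 0.87 but did not pass (adjusted p = 0.052). With 3 genes called when either ESC line was left out, the calls lost were Shmt1 in both cases (adjusted p = 0.19 without ESC.1 and 0.096 without ESC.2), Psat1 without ESC.1 (adjusted p = 0.12) and Gldc without ESC.2 (adjusted p = 0.084). Shmt1 was also not called with the filter on low values, with strain as a factor, without SSC.1 or without SSC.3 (adjusted p from 0.051 to 0.10), nor was Psat1 with quantile normalization (adjusted p = 0.094) or strain as a factor (adjusted p = 0.065). In iPS lines 5 genes were called against SSC lines, beside 24.5% of all transcripts and 36.8% of those with a mean FPKM of at least 1. These were Tdh (5.95), Mthfd1 (2.79), Gldc (2.33) and Psat1 (1.26), higher as were 8.93% of all transcripts, and Shmt1 (-0.63), lower as were 15.6%. Without iPS.2, 3 genes were called, since Psat1 (adjusted p = 0.059) and Shmt1 (adjusted p = 0.13) were lost. Psat1 was also lost without iPS.1 and with quantile normalization (adjusted p = 0.11 in each). MASC, ESC and iPS lines share the same SSC lines as their reference, so these columns of differences are not independent.

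**Figure D3:**
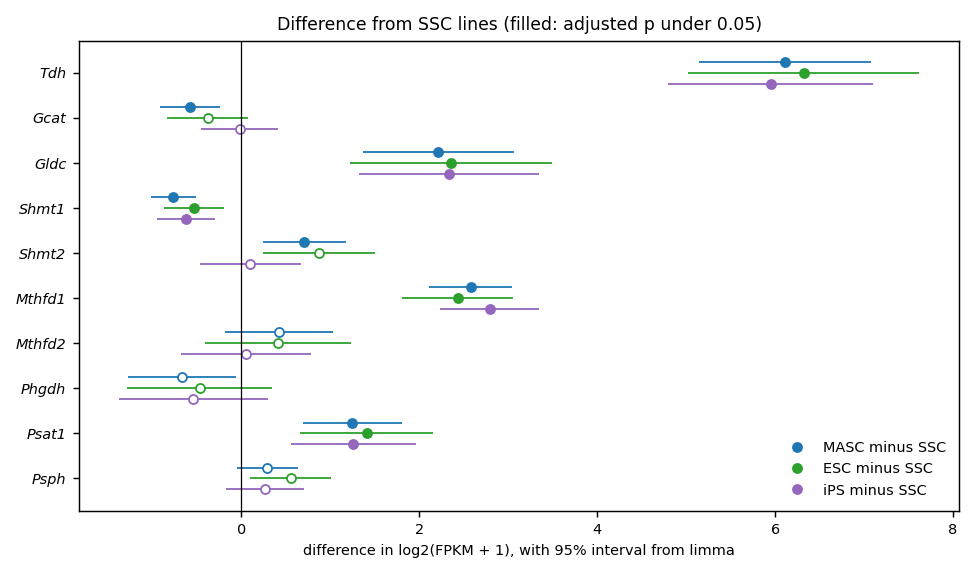
Difference from SSC lines on the log2(FPKM + 1) axis for each gene, in MASC (blue), ESC (green) and iPS lines (purple), with the 95% interval from limma; filled points have an adjusted p under 0.05. Tdh lies near 6 in all 3 cell types, and Shmt1 lies below 0 in all 3.

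Set directly against ESC lines, MASC lines showed no called difference in any of the 10 genes with limma, 0 of 10 had an unadjusted p under 0.05, and 0.0306% of all transcripts were called. The differences ran from -0.26 to 0.15. The intervals were wide for some genes, from -1.44 to 1.01 for Tdh, from -1.22 to 0.92 for Gldc and from -0.97 to 0.57 for Phgdh. They were narrower for Shmt1, from -0.55 to 0.09, and Gcat, from -0.62 to 0.23. Differences of up to these bounds could not be detected with 2 ESC lines.

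Strain was examined since the lines are of 4 backgrounds. Whether the MASC minus SSC difference depended on strain (129mix against Oct4-GFP, with a single 129mix SSC line) was tested by an interaction. None of the 10 genes passed with limma, 2 of 10 had an unadjusted p under 0.05, and 0.744% of all transcripts were called. Within Oct4-GFP lines the MASC minus SSC difference was 5.72 for Tdh, 1.17 for Gldc, 2.61 for Mthfd1 and -0.84 for Shmt1. Within 129mix lines it was 6.44, 2.96, 2.92 and -0.47 for the same genes in that order. Between Oct4-GFP and other MASC lines 0 of 10 genes were called with limma, 3 of 10 had an unadjusted p under 0.05, and 0.958% of transcripts were called. Phgdh differed most there, higher in Oct4-GFP MASC lines by 0.93 (adjusted p = 0.12). The Oct4-GFP MASC lines also had the highest fibroblast marker sums of the MASC lines. These were 1421 FPKM in MASC.1 and 214 FPKM in MASC.2, against 23.8 to 66.7 FPKM in the others. The part of feeder RNA in the strain differences was not tested.

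The MEF sample and the HSC cultures had less of several members. Set against the single MEF sample, iPS lines were higher in 5 of 10 genes by limma, where 21.6% of all transcripts were called and 11.4% were higher. Tdh was higher by 6.99, Gldc by 6.50, Mthfd1 by 3.39, Shmt1 by 3.28 and Gcat by 1.69. The fit assumes that MEFs vary as the other cell types do, and with 1 sample these calls compare the iPS lines with that sample and not with MEFs in general. Against SSC lines, HSC cultures were lower in 4 genes, where 33.4% of all transcripts were called and 20.7% were lower. Of transcripts with a mean FPKM of at least 1, 48.9% were called. The log2 difference was -3.99 for Gldc, -2.32 for Shmt1, -1.76 for Gcat and -0.81 for Psph. Against ESC and iPS lines together, HSC cultures were lower in 7 of 10 genes, where 30.7% of all transcripts were called and 16.0% were lower. The share called was 47.3% among transcripts with a mean FPKM of at least 1. Shmt2, Mthfd2 and Phgdh were not called in any of these 3 comparisons. Shmt2 was at the threshold against SSC lines (0.72, adjusted p = 0.050), and was called with the pseudocount 0.1, the filter on low values, trended robust variance, and without SSC.1 or SSC.4 (adjusted p from 0.033 to 0.048). The HSC cultures differ from each other in the fibroblast marker sum (8.23 and 516 FPKM), and the call of Psph against SSC lines was lost without HSC.2 (-0.60, adjusted p = 0.11). The call of Psat1 against ESC and iPS lines was lost without HSC.1 (-1.04, adjusted p = 0.089).

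Placing the cell types in order by mean log2 level, the top of the list for Tdh was ESC, then MASC, then iPS lines, with overlapping ranges, and a gap of 5.95 separated the iPS from the SSC lines below them. For Mthfd1 the order was iPS, MASC and ESC, again overlapping, followed by HSC and SSC, which overlapped with each other. Shmt1 and Phgdh were the members highest in SSC lines beside Gcat, and for Phgdh each neighbour in the order overlapped with the next. Phgdh was also the most abundant member in SSC lines, at the 98.85th percentile of all transcripts. In MASC lines Psat1 and Tdh ranked highest, at the 98.38th and 98.29th percentiles.

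Across the 17 samples Tdh tracked Mthfd1 most closely of the members (Pearson's r = 0.943) and Phgdh least (r = -0.483), a description over samples that share cell types and strains. Among 13645 other genes with a transcript of mean FPKM of at least 1, each taken by its most similar transcript, those most like Tdh were Gm5712 (r = 0.990), AU018091 (r = 0.986), 1700019D03Rik (r = 0.985), Gm6083 (r = 0.984) and Gm6792 (r = 0.984). Mthfd1 was most like Mylpf (r = 0.982), Nodal (r = 0.978) and Gdf3 (r = 0.977). Gldc was most like Nufip1, Nup43 and Ash2l (r from 0.984 to 0.985), Gcat like Prmt7, Pramef12 and Pfdn2 (r from 0.949 to 0.973) and Shmt1 like Nup133, Parp1 and Nudt21 (r from 0.974 to 0.977). For Shmt2, Phgdh and Mthfd2 the highest r was 0.852, 0.851 and 0.799, with Gsk3a, Mgrn1 and Haus7.

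Genes around the pathway were described in 6 lists. In folate interconversion and transport, MASC lines were higher than SSC lines in 3 of 13 genes and lower in 2, with a median log2 difference of 0.0081. These 5 are 38.5% of the list, where 30.9% of all transcripts and 45.1% of those with a mean FPKM of at least 1 were called. Folr1, a folate receptor, rose by 4.05 (SE 0.48, adjusted p = 0.00017), from 0.163 to 0.755 FPKM in SSC lines to 7.47 to 49.5 FPKM in MASC lines. Mthfd1l, the mitochondrial enzyme that releases formate, rose by 2.19 and Fpgs, which adds glutamate to folates, by 0.43. Slc19a1, the reduced folate carrier, fell by 0.83, close to the threshold (adjusted p = 0.0497). Among purine and thymidylate enzymes, which use the one-carbon units, 5 of 7 were higher and 0 lower (71.4% called), with a median of 0.78. These included Gart (1.41), Tyms (1.25), Paics (1.20) and Adsl (0.78).

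**Figure D4:**
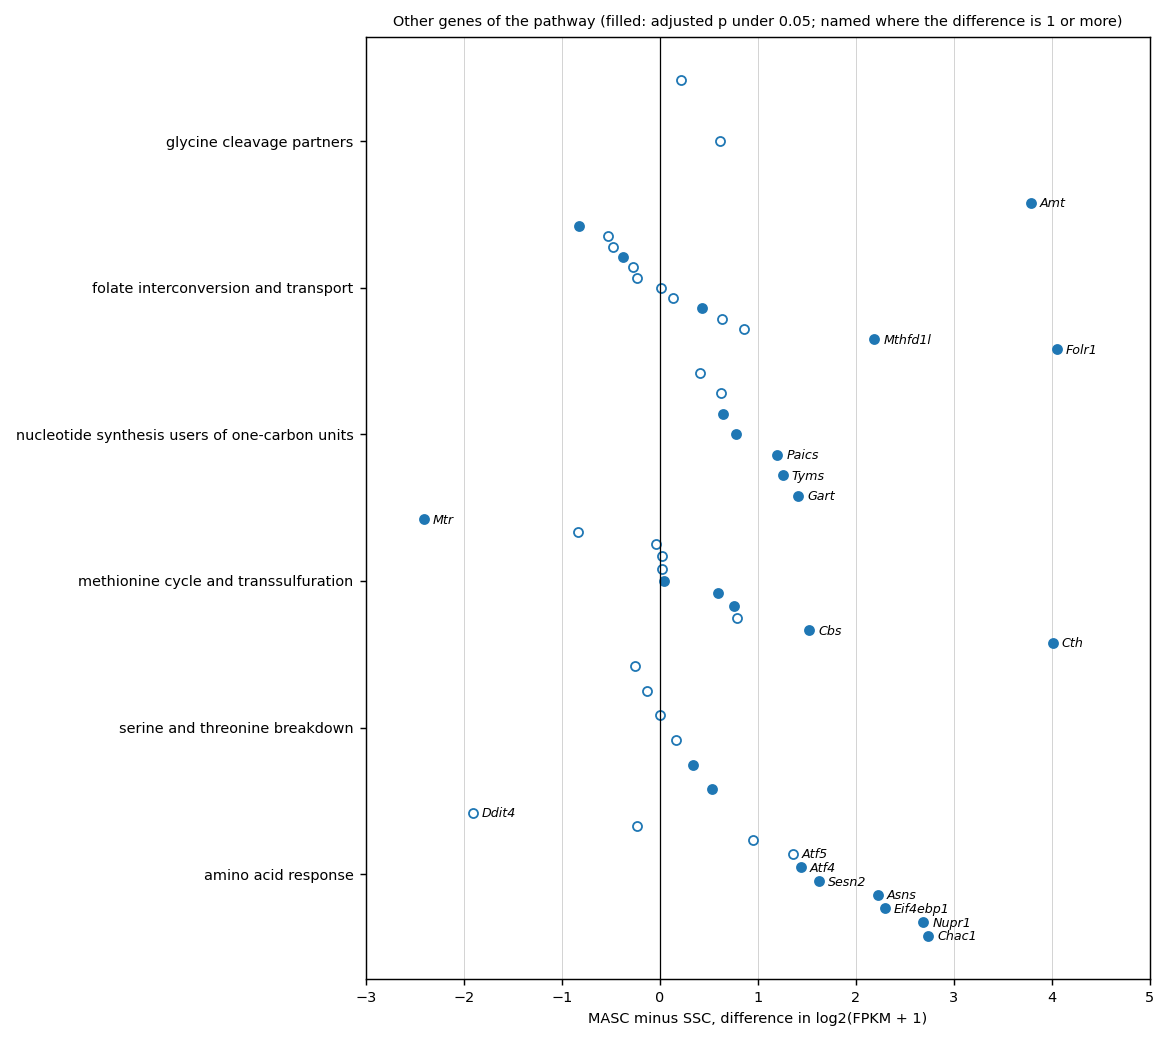
MASC minus SSC difference on the log2(FPKM + 1) axis for each gene of the 6 lists around the enzymes, with 1 point per gene; filled points have an adjusted p under 0.05, and genes with a difference of at least 1 in either direction are named. All filled points of the nucleotide and amino acid response lists are to the right of 0, while Mtr, at -2.41, is the filled point farthest to the left.

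In the methionine cycle and transsulfuration, 5 of 11 genes were higher and 1 lower (54.5% called), with a median of 0.04. In this comparison 30.9% of all transcripts were called, and 45.1% of those with a mean FPKM of at least 1. Cth, which makes cysteine from cystathionine, was at 2.49, 2.78, 2.83 and 1.46 FPKM in SSC.1 to SSC.4 and between 34.8 and 68.9 FPKM in MASC lines, a rise of 4.01 (SE 0.20, adjusted p = 1.0e-06). Cbs, which acts just before it from homocysteine and serine, rose by 1.52 from levels under 1 FPKM, and Mtrr, which reactivates methionine synthase, by 0.76. Methionine synthase itself, Mtr, fell by 2.41 (SE 0.31, adjusted p = 0.00029), from 89.8, 27.3, 51.1 and 83.5 FPKM in SSC lines to between 6.52 and 11.6 FPKM in MASC lines. Its lines did not overlap. The 5 higher genes include Bhmt, picked out after its values were seen, with a difference of 0.04. Of 6 genes for serine and threonine breakdown, of which 33.3% were called, Srr, which racemizes serine, and Sdsl, a serine dehydratase relative, were higher (0.53 and 0.33) and 0 were lower. SSC and MASC lines overlapped in both genes. Sdsl was low, at 0.0351 to 0.438 FPKM in SSC lines and 0.254 to 0.661 FPKM in MASC lines.

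Of 10 genes of the response to amino acid shortage, 6 were higher in MASC lines and 0 lower (60.0% called), with a median of 1.53. Beside this, 30.9% of all transcripts were called, and 45.1% of those with a mean FPKM of at least 1. Chac1, which breaks down glutathione, rose by 2.74, Nupr1, a stress-induced chromatin protein, by 2.69, Eif4ebp1, a brake on translation, by 2.29 and Asns, asparagine synthetase, by 2.22. Asns went from 17.2 to 40.2 FPKM in SSC lines to 115 to 154 FPKM in MASC lines, without overlap. This list also contains genes that respond to other stresses, and Nupr1 was high in the MEF sample (176 FPKM). The highest Nupr1 of the SSC lines (22.9 FPKM, in SSC.3) and of the MASC lines (82.3 FPKM, in MASC.1) went with the highest fibroblast marker sums, followed in MASC lines by MASC.2 (63.9 FPKM), with 21.3 to 35.9 FPKM in the others. SSC and MASC lines overlapped in Nupr1, and the part of feeder RNA was not tested.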

How the data were processed

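RNA-seq of 17 samples was used, with cell type, number and strain taken from the sample labels. Per the submitters' processing notes, reads were aligned to mm9 with TopHat2 2.0.11 and quantified with Cufflinks. The authors excluded duplicate reads and reads aligning to several places, and deposited 1 FPKM per RefSeq transcript, scaled to the upper quartile and corrected for GC content, with confidence bounds. The deposited coverage, a signal of mean reads over a transcript's bases, is unscaled and was read for depth alone. No count model was used, since read counts are not among the deposited values. Upper-quartile scaling sets all levels relative to the other genes of a sample.

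Of 33262 rows, 601 further loci of a transcript were left out. For 32661 transcripts, log2(FPKM + 1) was tested by moderated linear models (limma version 3.58.1, R version 4.3.3), and low values were kept. MASC, SSC and ESC lines were compared in a fit over these 12 lines, the other cell types in a fit over all 17 samples, and strain in cells of strain and cell type. The step was tested on simulated data. Members and gene lists were chosen with earlier results of these data known. Named genes are the members, the partners of Gldc, up to 4 called genes per list with the largest difference, and the transcripts most correlated with a member (5 for Tdh, 3 for the others). Alternatives were the pseudocount 0.1, the removal of transcripts without 1 FPKM in 2 samples, quantile normalization, a trended robust variance, summed transcripts, replicate and strain blocks, all 17 samples, and each line left out. Positions in genes are on mm9, counted from 1, and promoter sequences are RefSeq entries matched by symbol for 9 of 10 members (not Tdh). Some genes of the folate list are not reported here. ChIP-seq data were not analysed here.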

Additional observations from a re-analysis of the deposited data

Results flagged for a closer look

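Psat1 in MASC.1, at 128 FPKM, lay apart from the other MASC lines, which ran up to 175 FPKM. On the log2(FPKM + 1) scale its gap to the nearest line was 0.640 of the range of the group, past the limit of Dixon's test for 6 samples. The gap on the FPKM scale was not tested. Of 20 groups checked, 1 was marked, and chance marks about 1 in 20. MASC.1 also had the highest fibroblast marker sum of the MASC lines (1421 FPKM), beside a Psat1 of 68.7 FPKM in the MEF sample. The part of feeder RNA in the Psat1 value was not tested.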

How the results depend on the processing

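Beside the values of the 9 cell type and strain comparisons and the balance of the Shmt and Mthfd pairs, the directions of called members held under every alternative tried. Deviations of lines sharing a replicate number were mixed: 5 of 8 such pairs had a correlation over 0.1, with r from -0.355 to 0.414. The mean r was 0.051, beside -0.012 for pairs of different number. With 2 ESC lines, r with 1 of them is the reverse of r with the other (0.208 and -0.208 for SSC.1), so pairs with ESC lines say little. Nothing in the labels pairs lines by number. With the replicate number as a block, called members fell to 4 and called transcripts to 5945 between MASC and SSC lines, where Gldc (2.25, adjusted p = 0.060), Psat1 (1.19, adjusted p = 0.084) and Shmt2 (0.81, adjusted p = 0.053) were no longer called. Under this block the ESC minus SSC comparison kept 2 called members and 3377 called transcripts, and MASC against ESC 2 transcripts. MASC against ESC gave 17 called transcripts with a pseudocount of 0.1 and 6 with the filter. The strain interaction gave 26 with the filter and 514 with trended robust variance.

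When single lines were left out, called transcripts ranged from 4149 to 7372 and members from 3 to 7 for ESC against SSC, from 4457 to 8426 and from 3 to 5 for iPS against SSC, from 4378 to 5605 transcripts for iPS against MEF, and from 7 to 108 for MASC against ESC. Between MASC and SSC lines the members called ranged from 6 to 8. Without SSC.3 and MASC.1, the lines with most fibroblast marker RNA (chosen after seeing the data), 5 members and 8991 transcripts were called.

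Signs changed only for members that were not called. Between MASC and ESC lines these were Gldc (0.07), Phgdh (0.25) and Shmt2 (0.15) with the replicate block, and Mthfd2 with quantile normalization (-0.01) and the strain block (-0.02). Quantile normalization also turned Psat1 between HSC and SSC (-0.17), Mthfd2 between iPS and MEF (-0.02) and Gcat between iPS and SSC (0.20), and summed transcripts turned Shmt2 between iPS and MEF (0.15) and Gcat in the strain interaction (-0.35). With single lines left out, differences that crossed 0 between MASC and ESC lines ran from -0.40 to 0.01 (Gcat), -0.41 to 0.12 (Gldc), -0.06 to 0.36 (Mthfd1), -0.27 to 0.30 (Mthfd2), -0.37 to 0.05 (Psat1), -0.33 to 0.00 (Shmt2) and -0.53 to 0.10 (Tdh). Between HSC and SSC they ran from -0.35 to 0.15 (Mthfd2), -0.87 to 0.18 (Phgdh) and -0.26 to 0.31 (Psat1), and for Phgdh between HSC and ESC plus iPS lines from -0.37 to 0.69. Between iPS and SSC lines they ran from -0.17 to 0.14 (Gcat), -0.15 to 0.35 (Mthfd2) and -0.08 to 0.24 (Shmt2), and for Shmt2 between iPS and MEF from -0.25 to 0.03. The causes were not tested.

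The MASC minus SSC differences of both balances kept their direction, at 1.34 to 1.50 for the Shmt pair and -2.20 to -2.15 for the Mthfd pair. Tdh values of SSC.2, the HSC cultures and the MEF sample rest on few reads, and the lower bound given with 3 of these is 0.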

Other observations

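In the amino acid response list, 2 genes were higher and 1 lower of 10 in HSC cultures than in SSC lines, a share of 30.0% beside 33.4% of all transcripts, and 1 was higher and 2 lower in iPS lines than in the single MEF sample, beside 21.6%. Nupr1 and Chac1 were higher in the MEF sample (176 and 27.9 FPKM) than in any of the other 16 samples. Cth was at 12.1 FPKM in the MEF sample, above the SSC lines, and at 0.420 and 0.506 FPKM in the HSC cultures. The purine and thymidylate enzymes were higher in 6 of 7 cases in iPS lines than in the MEF sample (11.4% of all transcripts were), and 5 of 7 were lower in HSC cultures than in ESC and iPS lines (16.0% of all transcripts were). Mtr was lower in the MEF sample (3.19 FPKM) and the HSC cultures (8.06 and 9.96 FPKM) than in every SSC line, as it was in MASC lines. The level of Ddit4, a gene induced by several stresses that was named after its values were seen, ran from 50.5 to 505 FPKM in SSC lines and from 27.9 to 212 FPKM in MASC lines, and it was not called.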
